A study of Sus scrofa with 2 samples.

Results

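The let-7 family, the set of miRNAs that share the let-7 seed, was described in small RNA of pig oocytes at metaphase II, with attention to which members were present and where their 5' and 3' ends lay. The 9 members considered were let-7a, let-7b, let-7c, let-7d, let-7e, let-7f, let-7g, let-7i and miR-98. A read counted as a member when it was 18 to 26 nt long, held nt 2 to 20 of that member's mature form without a mismatch and started no more than 2 nt from its 5' end, and reads of 18 and 19 nt had to hold nt 2 to 18. This took 174 of the 1166705 distinct sequences of the series, 114 of them in control oocytes and 133 in knockdown oocytes. They amounted to 14099 of 11836160 control reads and 16696 of 11982925 knockdown reads.

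Both libraries came from pig oocytes matured in vitro for 42 h. In one of them Dicer, the ribonuclease that cuts miRNA hairpins and long double-stranded RNA, had been targeted with siRNA at the germinal vesicle stage, and the other was labelled as control. The labels used here do not say what the control oocytes received or how many oocytes and animals were pooled. Their treatment field names Dicer siRNA for both libraries, and the assignment to control or knockdown rests on the title and the genotype field. With 1 library per group there was no replicate, so every difference below is between these libraries and no test between the conditions was made. Intervals are 95% intervals and cover counting error alone, since reads copied by PCR and not marked by molecular identifiers need not come from separate molecules. In bulk RNA of pooled cells, fewer cells of a type and less RNA per cell cannot be told apart. The siRNA target itself is an mRNA and was not measured by these libraries.

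As background, let-7 was found as a timer of development in worms, and in vertebrates it accumulates as cells differentiate and represses growth genes such as HMGA2 and members of the RAS family. Its hairpins are cut by Drosha in the nucleus and by Dicer in the cytoplasm, and the protein LIN28 can block the second step and recruit enzymes that add uridines to the precursor. The mature 3' end can later be trimmed, or extended by terminal nucleotidyltransferases that add A or U. In mouse oocytes miRNAs are present but repress their targets weakly. In the pig annotation Sscrofa11.1, RefSeq names 10 genes of the family, and MIRLET7A-2, MIRLET7F-2 and MIRLET7D lie within 10 kb of each other, as do MIRLET7F-1 and MIR98. No let-7b gene is among the 10.

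The mature forms are shown because the members differ by so few bases that the reads must be told apart letter by letter. Each is the most abundant 22-nt read with the member's known bases. Letters are DNA as deposited, and capitals mark the seed, nt 2 to 8, with which a miRNA pairs to its targets.
let-7a: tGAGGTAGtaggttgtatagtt
let-7b: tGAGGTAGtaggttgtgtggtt
let-7c: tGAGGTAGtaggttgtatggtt
let-7d: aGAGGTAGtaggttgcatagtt
let-7e: tGAGGTAGgaggttgtatagtt
let-7f: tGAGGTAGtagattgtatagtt
let-7g: tGAGGTAGtagtttgtacagtt
let-7i: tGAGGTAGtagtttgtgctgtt
miR-98: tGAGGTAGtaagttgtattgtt

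All 9 share the seed GAGGTAG, and they differ outside it. Against let-7a, with positions counted from 1 at the 5' end, let-7f carries G12A, let-7e T9G and let-7c A19G. let-7i is the most distant, with 4 differences, and let-7d alone begins with another base, by T1A. All 9 forms were found as whole 22-nt reads in both libraries, from 4925 control reads for let-7f down to 24 for let-7b. Since let-7c and let-7e are each 1 base from the abundant let-7a, their reads were set beside variants of let-7a and let-7f that are no member. The 54 other single-base variants of let-7a at nt 2 to 20 had at most 4 control and 6 knockdown reads each, and the 56 of let-7f at most 21 and 9. The whole forms of let-7c, with 94 and 145 reads, and of let-7e, with 117 and 180, stood above all of these, as did those of let-7b, with 24 reads in each library.

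Within the family, let-7f and let-7a made up most reads, and let-7i was the third. let-7f had 642 RPM (reads per 1e+06 reads of the whole library, exact Poisson interval 628 to 657) in control oocytes and 814 RPM (798 to 831) in knockdown oocytes. let-7a had 380 RPM (369 to 392) and 403 RPM (392 to 415). let-7i had 108 RPM (102 to 114) and 99.6 RPM (94.1 to 105). These 3 members took 95.4% (control) and 94.9% (knockdown) of the reads that could be given to a single member. Reads of 18 and 19 nt that fit both let-7a and let-7c, 69 and 60 reads, are in the family total but in no member.

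The other 6 members were at low levels in both libraries. let-7e had 18.4 RPM (16.1 to 21.03) in control oocytes and 26.04 RPM (23.2 to 29.1) in knockdown oocytes. let-7c had 10.8 and 15.9 RPM, let-7g 11.997 and 11.8 RPM, and miR-98, which is encoded beside let-7f-1, 6.51 and 7.84 RPM. let-7d had 4.31 and 5.01 RPM and let-7b 2.87 and 4.76 RPM. Neighbours in this order had overlapping intervals from let-7c and let-7g downwards, namely let-7g against let-7c, miR-98 against let-7d and let-7d against let-7b. The steps from let-7f to let-7a, to let-7i and to let-7e were wider than counting error in both libraries.

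**Figure D1:**
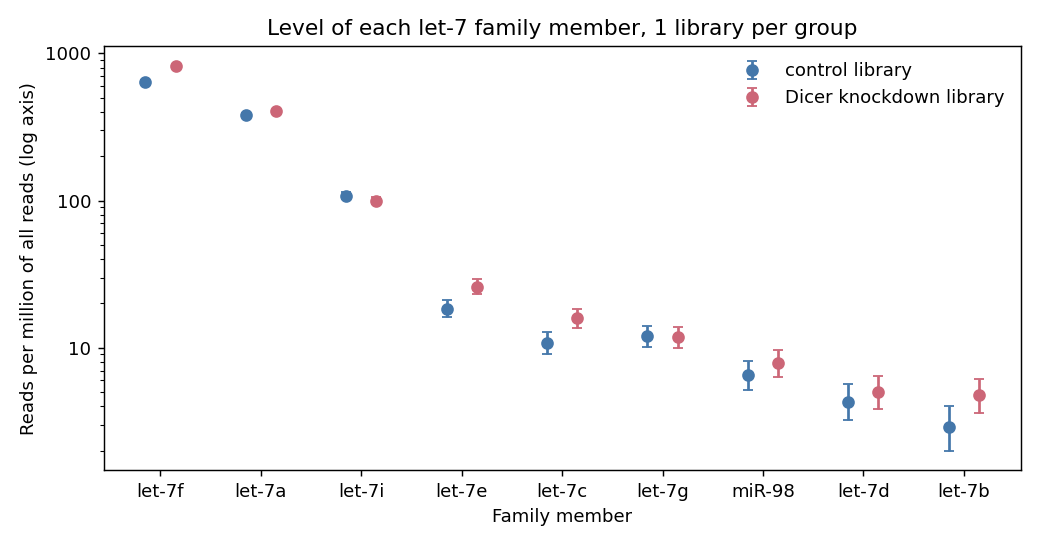
RPM (log axis) for each of the 9 family members in the control and the Dicer knockdown library; points are 1 library each and bars are exact 95% Poisson intervals. let-7f, let-7a and let-7i lie between 99.6 and 814 RPM, and the other 6 members lie between 2.87 and 26.04 RPM.

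The family as a whole was slightly more abundant in the knockdown library, and let-7f carried most of that difference. The total was 1191 RPM (1172 to 1211) in control oocytes and 1393 RPM (1372 to 1415) in knockdown oocytes, a ratio of knockdown to control of 1.17 (exact conditional interval 1.14 to 1.20). let-7f had a ratio of 1.27 (1.23 to 1.31) and let-7a of 1.06 (1.02 to 1.10). Without let-7f the family ratio was 1.05 (1.02 to 1.09). let-7i was level or lower, at 0.924 (0.853 to 1.001), so its difference was within counting error. The 6 low members together had 650 and 854 reads, a ratio of 1.30 (1.17 to 1.44).

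Among those low members, let-7e, let-7c and let-7b lay above 1 beyond counting error. Their ratios were 1.41 (1.19 to 1.69), 1.47 (1.17 to 1.85) and 1.66 (1.06 to 2.61), the last on 34 and 57 reads. let-7g, at 0.981 (0.771 to 1.25), miR-98, at 1.21 (0.883 to 1.65), and let-7d, at 1.16 (0.787 to 1.72), had intervals that include 1, so these counts could not show a difference. No member differed 2-fold. Of the 8 members whose reads summed to 100 or more over both libraries, 0 had a ratio of 2 and above or of 0.5 and below, against 11.1% of the 10652 distinct sequences of 18 to 26 nt with as many reads. The same rule held for 5 of 28 other miRNAs matched in the same way, or 17.9%. The 11.1% is a share of single sequences, while a member sums several. Of the 20 single sequences of the family with as many reads, 0 passed the rule. With only 8 members, a count of 0 is near these shares. The median ratio was 1.21 over the 9 members, with a range of 0.924 to 1.66, and 0.9997 over the 28 other miRNAs, with a range of 0.309 to 4.85.

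**Figure D2:**
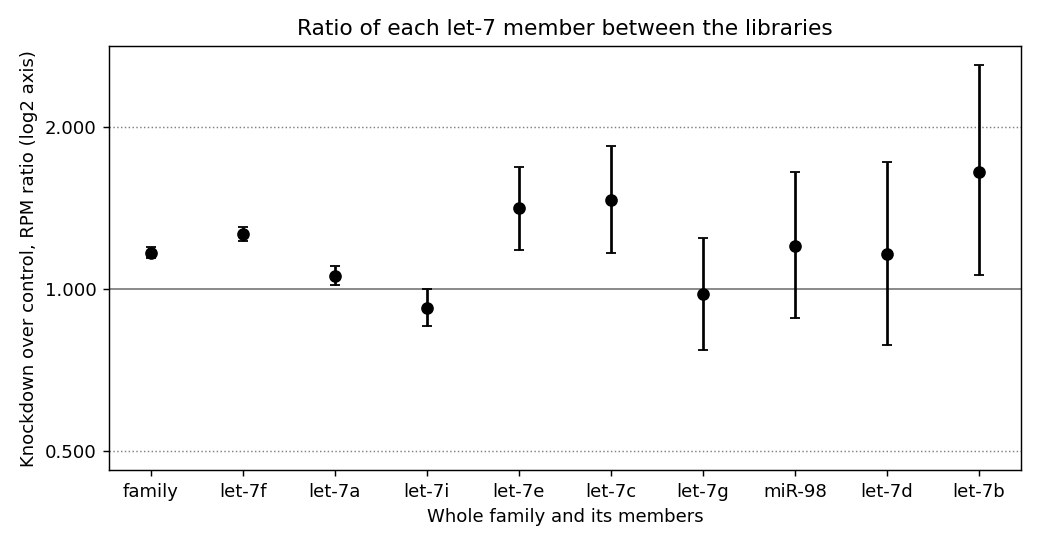
Ratio of RPM in the knockdown library to the control library (log2 axis) for the whole family and each member; bars are exact conditional 95% intervals and dotted lines mark 2-fold. The whole family lies at 1.17 and let-7f at 1.27, all points lie inside the dotted lines, and the intervals widen towards the rarer members, up to 1.06 to 2.61 for let-7b.

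The balance of the family lay further towards let-7f in the knockdown library. let-7f was 54.2% (exact binomial interval 53.4 to 55.0%) of the reads of single members in control oocytes and 58.7% (57.9 to 59.4%) in knockdown oocytes. let-7a went from 32.1% (31.3 to 32.9%) to 29.0% (28.3 to 29.7%), and let-7i from 9.09% (8.62 to 9.58%) to 7.18% (6.79 to 7.58%). There were 1.69 let-7f reads for each let-7a read in control oocytes and 2.02 in knockdown oocytes. These shares do not depend on the total of either library.

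Some miRNAs taken as markers of other cell types of the ovary also differed between the libraries. Of the 6 stromal and vascular miRNAs looked for, 4 had control reads and 5 had knockdown reads, with sums of 28.6 and 126 RPM, a ratio of 4.41 (3.92 to 4.98). miR-143, abundant in smooth muscle and stroma, held 285 and 1399 of those reads, and miR-214 had no read in either library. The 5 granulosa miRNAs summed to 472 and 608 RPM, a ratio of 1.29 (1.24 to 1.33), nearly all of it miR-21. This sum therefore describes miR-21 more than the list. The other 4 granulosa miRNAs did not move together: miR-132 had 57 and 45 reads, miR-383 47 and 27, miR-212 6 and 7 and miR-202-5p 6 and 32, with ratios of 0.780 (0.516 to 1.17), 0.567 (0.340 to 0.930), 1.15 (0.332 to 4.15) and 5.27 (2.17 to 15.4). Of the 3 blood miRNAs 2 had reads, with sums of 34.8 and 47.1 RPM, and miR-144 had none. miR-486 held 405 and 559 of those reads, a ratio of 1.36 (1.20 to 1.55). miR-451 had 7 and 5 reads, a ratio of 0.706 (0.177 to 2.58). let-7 itself is abundant in somatic cells, and the part of such cells in the ratios of its members was not tested.

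The 5' end of the family was nearly uniform. Reads that began exactly at nt 1 were 99.9% of family reads in control oocytes and 99.8% in knockdown oocytes. Any other start was seen in 10 of 14099 control reads and 27 of 16696 knockdown reads, or 0.0709% (0.0340 to 0.130%) and 0.162% (0.107 to 0.235%). Most of these had 1 extra base before nt 1, with 6 and 22 reads. The most frequent was a let-7a read with an added G, with 3 and 5 reads, and next a let-7f read with an added C, with 0 and 5 reads. The capital marks the added base.
let-7a with 1 base more: Gtgaggtagtaggttgtatagt
let-7f with 1 base more: Ctgaggtagtagattgtatagtt

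A start shifted by 1 base moves the seed. The rule cannot find a start beyond nt 2, because a read must hold nt 2.

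The 3' end varied more, and 21 and 22 nt were the main lengths. Reads of 22 nt were 64.6% (63.8 to 65.4%) of family reads in control oocytes and 68.6% (67.9 to 69.3%) in knockdown oocytes. Reads of 21 nt were 25.1% (24.4 to 25.9%) and 22.4% (21.7 to 23.01%), and reads of 23 nt 6.23% and 5.88%. Those of 18 to 20 nt were 3.67% (3.36 to 3.99%) and 2.77% (2.52 to 3.03%). Reads of 24 nt and longer were rare, with 45 and 58 in all. A small number of sequences carried the family, since the 15 most abundant held 94.0% of its reads in each library.

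The members differed in how often the last base was missing. In the control library reads of 21 nt were 26.9% (25.9 to 27.9%) of let-7f reads, 28.7% (27.4 to 30.0%) of let-7a reads and 27.5% (21.7 to 34.0%) of let-7e reads, but 7.13% (5.78 to 8.68%) of let-7i reads. In the knockdown library these shares were 21.98% (21.2 to 22.8%), 27.9% (26.6 to 29.1%), 26.6% (21.8 to 31.9%) and 5.19% (4.004 to 6.61%). Among these members let-7i had the most uniform 3' end in both libraries, with 80.5% and 83.2% of its reads at 22 nt. The rarer members, on few reads, were mixed. Their shares of 21-nt reads in the control and the knockdown library were 4.69% and 6.32% for let-7c, and 7.79% and 14.9% for miR-98. They were 5.88% and 26.3% for let-7b, 19.7% and 23.4% for let-7g, and 31.4% and 43.3% for let-7d. miR-98 had 83.1% and 77.7% of its reads at 22 nt. Between the libraries, the 21-nt share of let-7f differed by more than counting error and that of let-7a did not.

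**Figure D3:**
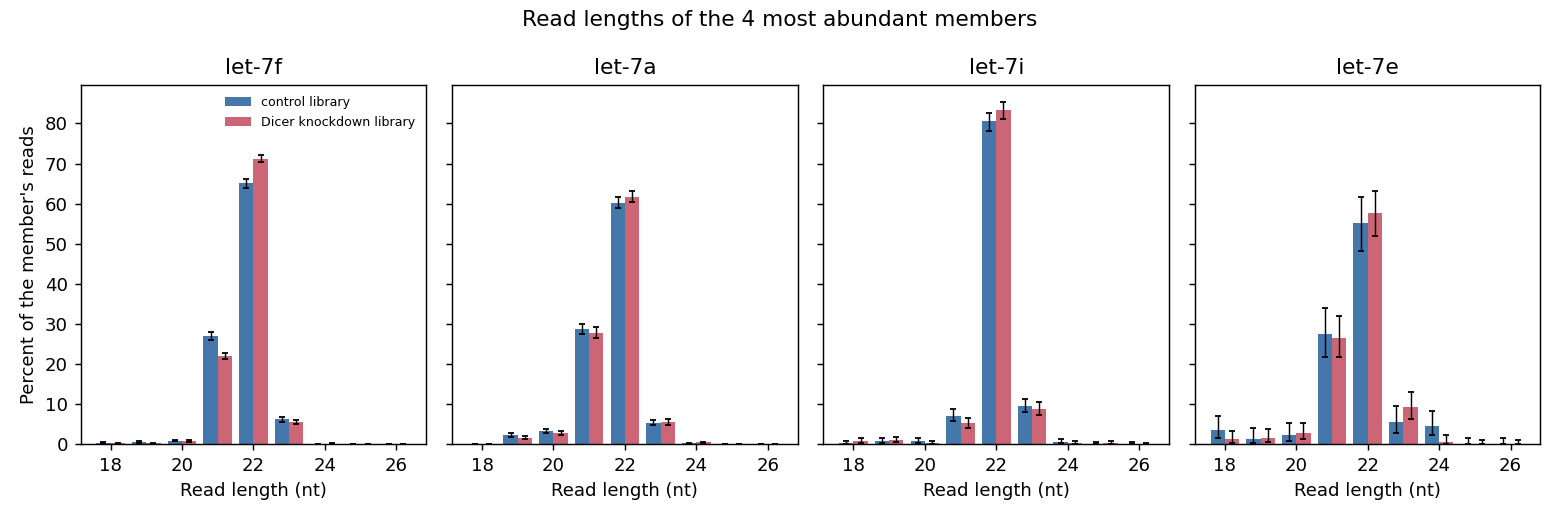
Share of each member's reads (percent) by read length (nt) for the 4 most abundant members in the control and the Dicer knockdown library; bars show 1 library each and error bars are exact 95% binomial intervals. For let-7f the 22-nt share is 65.0% in control oocytes and 71.2% in knockdown oocytes, and let-7i has few reads of 21 nt in both.

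The surplus of let-7f in the knockdown library lay in its whole 22-nt form. It was read 4925 times in control and 6913 times in knockdown oocytes, which is a ratio of 1.39 (1.34 to 1.44). The form without the last T had 2032 and 2138 reads, and the interval of its ratio of 1.04 (0.978 to 1.10) includes 1.
let-7f, 22 nt: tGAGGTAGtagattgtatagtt
let-7f, 21 nt: tGAGGTAGtagattgtatagt

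For let-7a the whole form had 2631 and 2915 reads, a ratio of 1.09 (1.04 to 1.15), and the 21-nt form 1260 and 1306 reads, a ratio of 1.02 (0.947 to 1.11). There were 2.42 whole let-7f reads for each 21-nt let-7f read in control oocytes and 3.23 in knockdown oocytes, 1.33 times as many (1.24 to 1.43). The same quantity was 1.07 (0.973 to 1.17) for let-7a and 1.08 (0.696 to 1.66) for let-7e. For let-7i it was 1.44 (1.02 to 2.05), on 91 and 61 reads of the 21-nt form. Each of the other 5 members had fewer than 50 reads of the shorter form. Their values lay below 1, at 0.771 for let-7c, 0.664 for let-7g, 0.402 for miR-98, 0.673 for let-7d and 0.133 for let-7b. Of their intervals only that of let-7b, 0.0138 to 0.690, leaves out 1. Among them, let-7b went from 2 to 15 reads of its 21-nt form while its whole form stayed at 24 reads, a ratio for the shorter form of 7.41 (1.72 to 66.8).

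The same comparison was made for the other miRNAs, with the most abundant read of 21 to 23 nt in place of the mature form. That read need not be the mature form. For miR-182 it and the form 1 nt shorter held 40353 and 15604 of 218974 control reads. In 17 of them both forms had at least 50 reads in each library, and the quantity ran from 0.432 for miR-100 to 1.29 for miR-181a, with a median of 0.812. It was above 1 in 5 of the 17 and above the 1.33 of let-7f in 0. The interval of let-7f, 1.24 to 1.43, still overlapped several of theirs. Among these were miR-181a (1.01 to 1.65), miR-22 (1.07 to 1.35), miR-183 (0.797 to 1.66) and miR-16 (0.820 to 1.39). The count of 0 depends on the minimum of 50 reads. Below it, miR-186 had 3.55 (1.96 to 6.48), with 52 and 26 reads of its shorter form, miR-93 had 4.95 (1.05 to 46.5) and miR-191 had 1.73 (0.964 to 3.18). miR-10b, the most abundant of the 28 other miRNAs, had 0.699 (0.684 to 0.715), miR-182 0.910 (0.886 to 0.935) and miR-148a 0.812 (0.672 to 0.979). This comparison was chosen after the let-7f values had been seen, and it was not tested across replicates. All family reads of 22 nt together had a ratio of 1.24 (1.21 to 1.28), while reads of 22 nt outside the family had 0.927 (0.925 to 0.930). For 21 nt these ratios were 1.04 (0.994 to 1.09) and 0.954 (0.949 to 0.958).

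**Figure D4:**
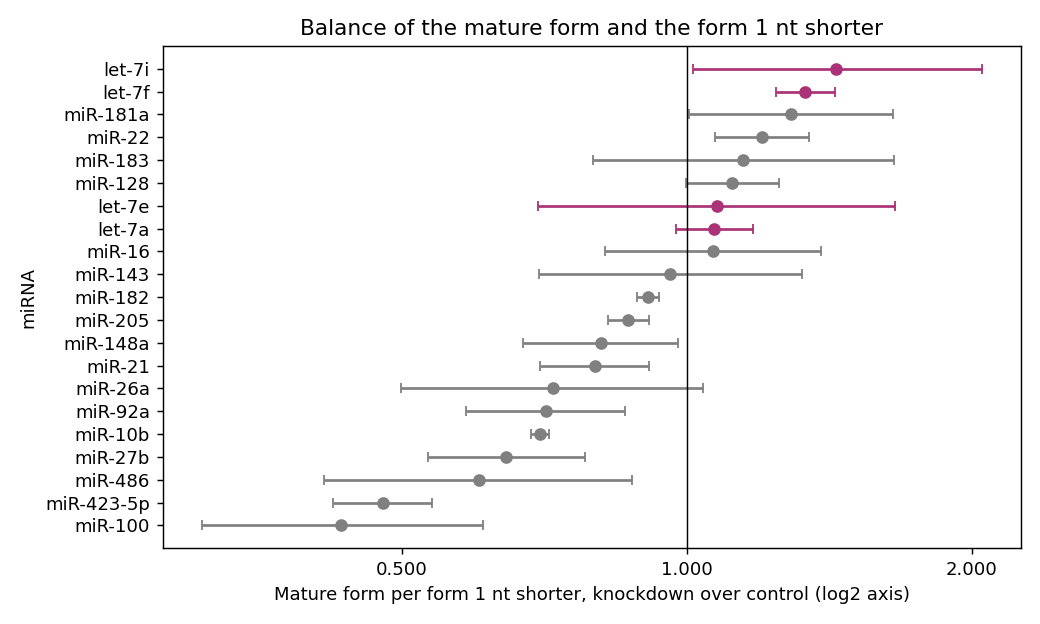
Number of reads of the mature form per read of the form 1 nt shorter, as the knockdown value over the control value (log2 axis), for the 4 let-7 members (purple) and 17 other miRNAs (grey) with at least 50 reads of both forms in each library; bars are 95% intervals. For the 17 other miRNAs the most abundant read of 21 to 23 nt stands in for the mature form. The remaining let-7 members had values below 1 on fewer reads and are not shown. let-7i lies at 1.44 and let-7f at 1.33, the 17 others run from 0.432 to 1.29, and let-7a and let-7e lie near 1.

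Shortened let-7 reads of 18 to 20 nt were no more frequent in the knockdown library. They numbered 517 and 462, a ratio of 0.883 (0.777 to 1.003). At 18 nt alone the family had 113 and 105 reads, a ratio of 0.918 (0.697 to 1.21), while 18-nt reads outside the family had a ratio of 1.26 (1.25 to 1.27). At 19 nt the family had 166 and 125 reads, a ratio of 0.744 (0.585 to 0.944), against 1.005 (0.997 to 1.01) for other reads. let-7a gave the most abundant short forms, with 144 and 135 reads at 20 nt and 101 and 77 at 19 nt. Over the 28 other miRNAs the share of reads of 18 to 20 nt had a median of 3.78% in control oocytes and 5.004% in knockdown oocytes, with ranges of 0.324 to 81.5% and 0 to 88.4%. The family's own shares, 3.67% and 2.77%, lay inside those ranges.

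Tails were measured on reads of 20 to 26 nt, as the bases at the 3' end that do not continue the mature form after its longest matching stretch. The hairpins were not used here, so a base that the gene encodes after nt 22 cannot be told apart from a base added later. By this measure 1072 of 13820 control reads and 1177 of 16466 knockdown reads had a tail, or 7.76% (7.32 to 8.22%) and 7.15% (6.76 to 7.55%). Most tails were a single base, with 1013 and 1082 reads, and tails of 2 bases had 48 and 84. Tails of A alone were the most frequent, at 5.08% (4.72 to 5.46%) and 4.26% (3.95 to 4.58%) of reads, and tails of T alone followed, at 2.27% (2.03 to 2.53%) and 2.37% (2.14 to 2.61%). The measure does not treat these bases alike. All the mature forms end in TT, so a T after a shortened form continues it and counts as no tail. Tails of T were thus seen only after the whole form, while tails of A also followed shortened forms. After the whole form, a single A had 534 reads in each library and a single T 312 and 378. A single C or G after the whole form was rare, with 10 and 13 reads for C and 14 and 24 for G.

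For 7 kinds of tail, the read that was the most abundant of its kind in at least one library is shown, with the tail in capitals, because the tail bases are the feature compared. Common tails of other members, such as the A of let-7a and let-7i, are given by their counts below.
let-7f, whole form and A: tgaggtagtagattgtatagttA
let-7f, whole form and T: tgaggtagtagattgtatagttT
let-7f, whole form and G: tgaggtagtagattgtatagttG
let-7a, whole form and C: tgaggtagtaggttgtatagttC
let-7a, whole form and 2 A: tgaggtagtaggttgtatagttAA
let-7f, whole form and 2 T: tgaggtagtagattgtatagttTT
let-7a, nt 1 to 21 and A: tgaggtagtaggttgtatagtA

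let-7f was followed by A and by T about equally often, and let-7a mostly by A. The whole let-7f form with 1 more A had 236 control and 238 knockdown reads, and with 1 more T 218 and 265. The whole let-7a form with 1 more A had 188 and 185 reads, and with 1 more T 45 and 52. As a share of the reads that matched to nt 22, A followed let-7f in 4.37% (3.84 to 4.95%) of the control library and 3.19% (2.80 to 3.61%) of the knockdown library. A followed let-7a in 6.53% (5.65 to 7.49%) and 5.80% (5.01 to 6.67%). T followed let-7f in 4.04% (3.53 to 4.60%) and 3.55% (3.14 to 3.998%), but let-7a in 1.56% (1.14 to 2.09%) and 1.63% (1.22 to 2.13%). The intervals of let-7f and let-7a do not overlap for either base in either library.

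let-7i resembled let-7a in how often A followed the whole form, at 7.79% (6.31 to 9.48%) and 6.45% (5.07 to 8.06%). Its T was at 2.51% (1.69 to 3.58%) and 3.09% (2.15 to 4.29%). The interval of that T overlaps the one of let-7f in both libraries, and the one of let-7a in control oocytes only. There were 1.08 A for each T after let-7f in control oocytes and 0.898 in knockdown oocytes, against 4.18 and 3.56 after let-7a and 3.10 and 2.09 after let-7i. After let-7e, T was the more frequent base, with 4 A and 8 T in control oocytes and 10 A and 16 T in knockdown oocytes. let-7g had 7 A and 1 T, and 11 A and 0 T. These last counts are too low to rank the members.

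**Figure D5:**
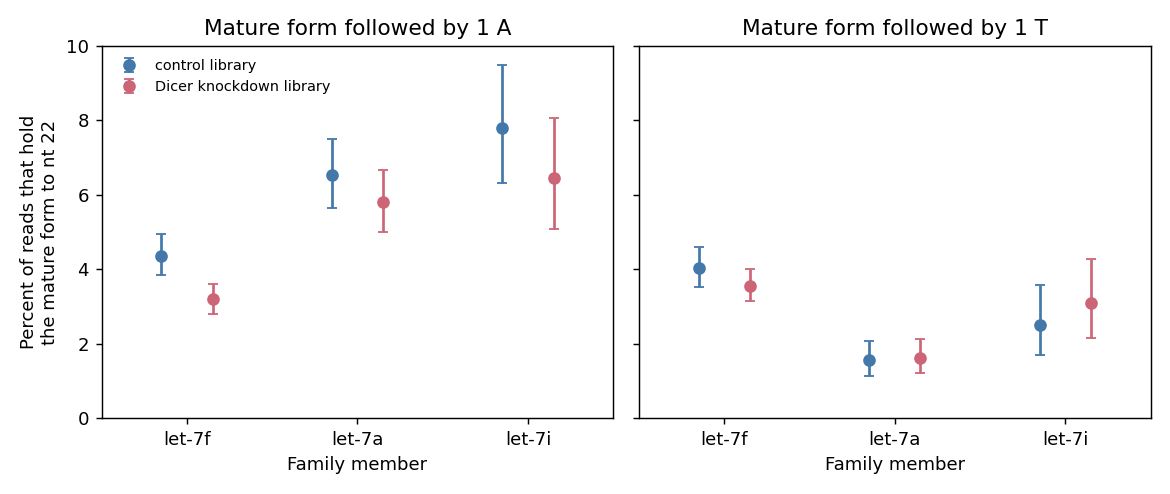
Share of reads (percent) in which the whole mature form is followed by exactly 1 A (left) or 1 T (right), of all reads of that member that match to nt 22, for let-7f, let-7a and let-7i in both libraries; bars are exact 95% binomial intervals. A followed let-7a in 6.53% and 5.80% of reads and let-7f in 4.37% and 3.19%, and T followed let-7f in 4.04% and 3.55% and let-7a in 1.56% and 1.63%.

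An A in place of the last T was more frequent in let-7a than in let-7f. The form of let-7a that holds nt 1 to 21 and then A had 66 control and 54 knockdown reads, beside 1260 and 1306 reads that end at nt 21. That is 4.98% (3.87 to 6.29%) and 3.97% (2.997 to 5.15%) of these 2 forms together. For let-7f the same form had 16 and 20 reads, or 0.781% (0.447 to 1.27%) and 0.927% (0.567 to 1.43%). let-7e had 3 and 0 such reads and let-7c 3 and 2, too few to compare. A C at that place had 4 and 0 reads in let-7a, and a G 1 and 0. A sequencing error at nt 22 would be read as such a tail, and its part in these counts was not tested.

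Between the libraries the share of reads with any tail differed little, at 7.76% and 7.15%, but some kinds of tail differed more. Reads of the whole form with 1 A had a ratio of 0.988 (0.874 to 1.12), on 534 reads in each library, and those with 1 T had 1.20 (1.03 to 1.39). The untailed whole form had 1.25 (1.21 to 1.28), so the share of reads with an A was lower in the knockdown library although their number was equal. Tails of 2 bases were higher, with a ratio of 1.73 (1.20 to 2.52). In let-7a they went from 18 to 40 reads, of which the form that holds nt 1 to 21 and then AA went from 4 to 15, and in let-7f from 6 to 24. let-7e went the other way, from 10 to 3 reads with a ratio of 0.296 (0.0524 to 1.15), let-7i from 8 to 5 and let-7b from 3 to 2, with intervals that include 1. Tails of at least 2 T after the whole form had 2 and 12 reads, a ratio of 5.93 (1.32 to 54.5), with 7 of the 12 in let-7f. T was also taken as the first base of the sequencing adapter, whose sequence was not checked here. Reads that ended in a whole form and TG, or a whole form and TGG, numbered 0 in both libraries. How many of the 311 and 377 reads in which T followed the whole form hold a leftover adapter base was not tested.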

How the data were processed

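Small RNA of total RNA from pig oocytes was ligated to adapters, reverse transcribed, amplified and sequenced, per the labels' protocols. For each library the authors deposited a table with each distinct sequence, its length in nt and its raw read count, not normalized. Bowtie2 was among the tools, per the submitters' processing notes. Which version and build were used, and how reads were trimmed, is not given in the sources used here. Count totals were 11836160 control and 11982925 knockdown reads, of which 74.1% and 71.8% were 18 to 26 nt long, and 3 reads were worth 0.253 and 0.250 RPM.

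No table of miRNA sequences was used. Each let-7 mature form was read from the deposited tables, as the most abundant 22-nt sequence with the seed and the member's diagnostic bases, which came from background knowledge. The 28 other miRNAs and the marker miRNAs were found likewise, from their seeds and up to 3 further bases, as the most abundant read of 21 to 23 nt. A read of 18 or 19 nt that fit several members was given to one of them where its last bases told them apart. RPM is relative to all reads. Named items were all 9 members, the most abundant sequence of each, the 15 most abundant family sequences and the top sequence of each tail class. Members, lists and comparisons were chosen with earlier results of these data known. let-7d-3p and the single-base variants were added later.

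Shares have exact binomial, levels exact Poisson and ratios exact conditional intervals. The interval of the ratio of whole to shorter forms was exact, or normal on the log scale where all 4 counts exceeded 1000. No p-values were computed, because each group has 1 library. The scripts were tested on simulated data, in which all 1745 planted let-7 reads were given to the right member and start, all 1745 tails were recovered and 0 of 20000 random reads were taken. Planted tail bases that continued the mature form were counted as part of it, by the same rule as in the data. The check therefore cannot show that such bases are recovered. The planted reads held no sequencing errors, and none was of 18 or 19 nt. Of 10652 simulated sequences, all 165 changed 4-fold that kept 100 reads were found, and 95.8% of intervals held the true value, with Poisson error alone. Alternatives changed the denominator, the match, the length window, the treatment of rare sequences and the thresholds. Python 3.11.15, numpy 2.4.6, scipy 1.17.1 and matplotlib 3.10.9 were used.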

Additional observations from a re-analysis of the deposited data

Results flagged for a closer look

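Reads of the opposite arm of a let-7 hairpin, outside the reads counted above, stood higher in the knockdown library than in the control library. let-7d-3p, the 3' arm of the let-7d hairpin, had 3 control and 39 knockdown reads over 6 distinct sequences, a ratio of 12.8 (exact conditional interval 4.08 to 65.0), at 0.253 and 3.25 RPM. Its 22-nt form had 0 control and 23 knockdown reads, while the 5' arm, let-7d itself, had 51 and 60.
let-7d-3p, 22 nt: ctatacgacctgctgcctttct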

How the results depend on the processing

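Of 51 values under alternatives, 34 stayed within the interval of the value reported and 17 moved outside it. The family ratio of 1.17 became 1.23 when the whole mature form had to be present and 1.21 relative to reads of 18 to 26 nt. Chosen after seeing the data, it became 1.05 without let-7f, 1.04 for reads of 21 nt alone and 1.24 for 22 nt alone. The let-7a share became 29.0% in the control and 25.8% in the knockdown library with the whole form required, and 36.5% and 36.0% among reads of 21 nt; the gap between the libraries was narrower in the 21-nt reads and had the same direction. The 22-nt share became 65.9% and 69.6% in reads of 20 to 26 nt, and 20.2% and 26.3% with each distinct sequence counted once. The tailed share became 9.19% and 8.12% among reads with the whole form, and 65.3% and 65.8% with each distinct sequence once, where the knockdown library had the higher share instead of the lower. The count of members past the fold threshold was 0 under each of the 7 alternatives tried, each changing 1 choice. let-7b, with a ratio of 1.66 on 34 and 57 reads, would pass with a threshold of 1.5-fold and a minimum of 10 reads together. The tail alternative that needs hairpins was not run. No paired analysis was possible because each group has 1 library. Depth limits let-7g, miR-98 and let-7d, whose ratio intervals include 1.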

Other observations

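The 3' arms of let-7 hairpins that begin with the letters cTATACAA had 7 control and 6 knockdown reads over 4 distinct sequences, a ratio of 0.847 (0.235 to 2.94). A further 184 distinct sequences were 1 mismatch from a member, with 158 and 236 reads, or 1.12% and 1.41% of the family, and the most abundant of them carried T6G relative to let-7f, inside the seed, with 21 and 9 reads. Another 91 distinct sequences of 18 to 26 nt had the let-7 seed at nt 2 to 8 but matched no member within 1 mismatch, with 154 and 93 reads, a ratio of 0.597 (0.456 to 0.777).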
